A study of Schizosaccharomyces pombe with 36 samples.

Results

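The comparison is between wild-type (WT) fission yeast harvested 15 min after 1 M sorbitol was added to the culture and the same strain harvested just before the addition (0 min). Its members are the 6 WT libraries of those times, 3 at 15 min and 3 at 0 min, out of 36 strand-specific total RNA libraries of WT and *atf21Δ* cells. Both groups were grown in yeast extract medium, and both were depleted of ribosomal RNA before sequencing. The measure is the RPKM, the reads on a feature per kilobase of its length, relative to all uniquely mapped reads of the library. The features are the 7039 annotated genes and non-coding RNAs (ncRNAs) of the deposited table, of which 5882 were high enough to be tested. With 3 replicates a group, p-values measure the spread between these cultures.

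Sorbitol is a sugar alcohol that cells do not readily take up, so that it draws water out of the cell. In fission yeast this activates the MAP kinase Sty1, the counterpart of mammalian p38, through the kinases Wis4 and Win1 and then the kinase Wis1. Active Sty1 enters the nucleus and acts with the bZIP transcription factor Atf1 and its partner Pcr1, which bind the cyclic AMP response element (CRE) in the promoters of stress genes. Known targets make glycerol as an internal osmolyte, remove peroxides and switch Sty1 off again.

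The largest changes at 15 min were rises. Genes of unknown or poorly described function (*SPBC660.05*, *SPAC23H3.15c*, *SPCPB16A4.07*), the calcium pump gene *cta3*, the Sty1 phosphatase gene *pyp2* and the catalase gene *ctt1* rose by more than 4 on the log2 scale. Genes for the B-type cyclin *cig1*, the copper transporter subunit *ctr4* and the septum glucanase *eng1* fell. At the same time the RPKM of most features went down, so changes are given relative to the median feature. The deposited scale is set beside them for the counts over all features and for lists whose median it takes below 0. Counts called within a list are after scaling.

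On the RPKM as deposited, the median feature changed by −0.46 on the log2 scale, a drop of 27.4%, and 5044 of the 5882 features (85.8%) lay below 0. The median of the 15 min libraries, each against the mean of 0 min, was −0.36, −0.40 and −0.61, against 0.17, −0.15 and 0.01 in the 0 min libraries. Every 15 min library was thus below every 0 min library. Part of the drop goes with reads that moved to other classes of RNA. Nuclear protein-coding genes took 40.7%, 38.9% and 34.4% of the reads on features at 15 min, against 50.0%, 41.2% and 44.9% at 0 min. Ribosomal RNA took 46.1%, 48.2% and 57.3% at 15 min, against 37.5%, 51.1% and 46.8% at 0 min, and these ranges overlap. With the rRNA reads left out of the totals the median change was −0.31, so that 33.9% of the drop was gone. Set against protein-coding reads alone it was −0.21 (54.8% gone), and against the reads of protein-coding genes that were not called higher it was −0.10 (78.3% gone). The last set was chosen by the calls of this same comparison, which moves the median towards 0 by construction, so that value is only a description. RPKM are shares of a library, so less mRNA per cell and more of other RNAs per cell cannot be told apart here.

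For the tests, the libraries were therefore brought to a common scale with trimmed mean factors, which put the median feature at 0.00. All changes below are log2 changes of RPKM + 0.5 on that scale unless "as deposited" is written, and a feature is called when limma gave a Benjamini-Hochberg adjusted p under 0.05. After scaling, 633 features were called higher (10.8% of those tested) and 678 lower (11.5%). Without replicate 2 or replicate 3 of 0 min the calls higher were 394 and 386. As deposited, 146 were called higher (2.48%) and 1945 lower (33.1%). Of the 1945 deposited falls, 678 (34.9%) were also called after scaling and 1267 (65.1%) were not, while 56 had a scaled change above 0. For the median gene among the 1945, the shift made up 49.7% of its deposited log2 fall. Among the 678 that were called after scaling it made up 34.3% (4.52% to 64.8%). The choice of scale bears on the rises too. The 633 risers had a median change of 0.70 scaled and 0.21 as deposited, and 197 of them lay below 0 as deposited.

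**Figure D1:**
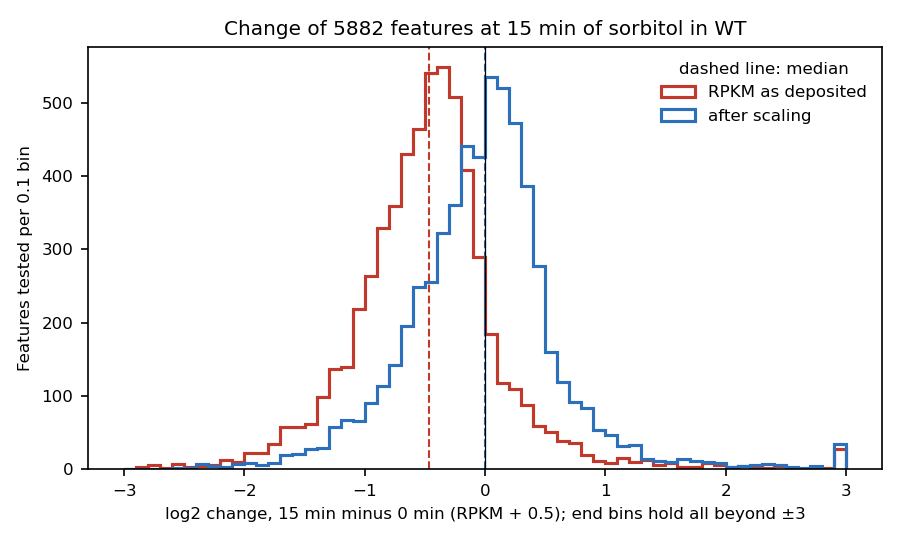
Distribution of the log2 change of the 5882 features tested, 15 min minus 0 min (x axis, RPKM + 0.5), in bins of 0.1 (y axis, features per bin), for RPKM as deposited and after scaling. The dashed medians lie at −0.46 as deposited and 0.00 after scaling, and a small set of strong rises lies at the right end in both.

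Sequence upstream of the genes held a short word more often among strong rises than among all genes, though most strong rises lacked it. The CRE core TGACGT, read on either strand, was searched for from 250 bases before to 50 bases after the start of each gene in RefSeq (assembly ASM294v3). It was in 5.92% of all 5099 such windows (302), in 34.6% of those of protein-coding genes called higher by over 2-fold (47 of 136), in 15.8% of all called higher (83 of 526) and in 3.36% of those called lower (21 of 625). Of the 47, 44 had the match closest to the start within 150 bases before it, against 209 of all 302, and the median distances were 70 and 76 bases. Of the 12 largest rises of protein-coding genes 4 held the core in this window, as did 2 of the 12 largest falls (*SPAPB15E9.01c* and *SPBC8E4.01c*). The palindrome TGACGTCA, which holds the core on both strands, was in 0.275% of all windows and in 7 of the 136. Seen the other way, tested genes with the core had a median change of 0.23 and 28.7% were called higher, against −0.02 and 9.71% for those without it. A match is only a run of letters, and binding was not measured.

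The 100 bases before the outermost annotated start (in the deposited table or in RefSeq) are shown for the 11 of 38 named protein-coding genes with a rise of over 2-fold that hold the core there. They are printed 5′ to 3′ on the strand of the gene, with the core in capitals. The 11 were picked for holding the core, which lies at different distances and on different strands. Signalling, transcription factor, glycerol, trehalose and peroxide genes are among them. Other named genes of these classes, such as *pyp2*, *pcr1*, *tps1*, *gpx1* and *srx1*, do not hold the core there. By the same window, 2.77% of all protein-coding genes have it. The windows lie at chrII:202157-202256 (+) for *SPBC660.05*, chrIII:955071-955170 (+) for *SPCPB16A4.07*, chrIII:58866-58965 (−) for *ctt1*, chrII:1722131-1722230 (+) for *atf21*, chrII:1546094-1546193 (+) for *atf1* and chrIII:1301837-1301936 (+) for *srk1*. Those of *gut2* (chrIII:1843301-1843400, −), *gpd1* (chrII:4035466-4035565, +), *ntp1* (chrII:206480-206579, +), *gst3* (chrI:3116929-3117028, −) and *cgs1* (chrI:3642872-3642971, +) follow, all in ASM294v3.
SPBC660.05: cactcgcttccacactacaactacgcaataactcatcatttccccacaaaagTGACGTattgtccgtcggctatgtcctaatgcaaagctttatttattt
SPCPB16A4.07: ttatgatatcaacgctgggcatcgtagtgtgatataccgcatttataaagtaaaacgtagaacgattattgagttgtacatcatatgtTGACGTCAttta
ctt1: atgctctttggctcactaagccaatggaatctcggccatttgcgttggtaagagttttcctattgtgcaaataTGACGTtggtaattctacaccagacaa
atf21: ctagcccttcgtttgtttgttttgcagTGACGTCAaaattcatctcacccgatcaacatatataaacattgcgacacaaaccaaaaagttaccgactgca
atf1: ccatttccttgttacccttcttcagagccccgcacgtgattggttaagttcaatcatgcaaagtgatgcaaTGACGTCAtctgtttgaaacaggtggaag
srk1: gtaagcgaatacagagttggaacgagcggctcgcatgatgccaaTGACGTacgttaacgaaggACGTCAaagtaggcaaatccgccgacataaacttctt
gut2: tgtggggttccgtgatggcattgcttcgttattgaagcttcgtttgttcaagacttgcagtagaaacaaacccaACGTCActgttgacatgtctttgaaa
gpd1: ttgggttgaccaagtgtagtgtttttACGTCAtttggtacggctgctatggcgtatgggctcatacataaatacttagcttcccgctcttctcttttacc
ntp1: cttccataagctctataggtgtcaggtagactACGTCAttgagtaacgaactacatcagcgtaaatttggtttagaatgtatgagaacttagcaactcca
gst3: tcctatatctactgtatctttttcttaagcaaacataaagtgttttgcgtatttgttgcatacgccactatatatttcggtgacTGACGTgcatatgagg
cgs1: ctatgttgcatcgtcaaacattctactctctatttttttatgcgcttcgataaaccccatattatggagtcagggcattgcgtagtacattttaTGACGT

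The 12 largest rises lay between 4.43 and 6.44. *SPBC660.05* (RefSeq protein wwm3) had 101, 94.8 and 77.5 RPKM at 15 min, against 1.53, 0.891 and 0.559 RPKM at 0 min, a rise of 6.44 (SE 0.29, adjusted p = 2.3e-10). *SPAC23H3.15c*, named Ddr48 in RefSeq, had 472, 433 and 468 RPKM at 15 min, against 8.03, 8.41 and 10.1 RPKM at 0 min (6.12). *SPCPB16A4.07* (Smp4) had 439, 389 and 424 RPKM at 15 min, against 7.39, 6.89 and 13.8 RPKM at 0 min (5.97). In each of these genes the 15 min replicates lay close together and no 15 min library came near a 0 min library. Genes of metabolism were also among the 12. *SPACUNK4.17*, a member of the NAD-binding dehydrogenase family, had 143, 142 and 207 RPKM at 15 min, against 2.94, 3.88 and 4.33 RPKM at 0 min (5.76). *SPBC24C6.09c*, of the phosphoketolase family, had 36.6, 30.8 and 36.5 RPKM at 15 min, against 1.05, 0.388 and 1.65 RPKM at 0 min (5.07). The transporter gene *SPCC794.04c* rose by 5.10, *SPBC21C3.19* (Rtc3, of the SBDS family) by 5.05, *lsd90* by 4.62 and the dehydrogenase gene *SPAC22A12.17c* by 4.60.

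Genes with a known task in ion balance and signalling stood among them. *cta3*, which encodes a P-type calcium-transporting ATPase, had 19.4, 14.4 and 23.3 RPKM at 15 min, against 0.288, 0.234 and 0.364 RPKM at 0 min (5.02, SE 0.25, adjusted p = 4.2e-10). *pyp2*, whose tyrosine phosphatase removes the activating phosphate of Sty1, had 38.9, 40.9 and 41.4 RPKM at 15 min, against 1.58, 1.86 and 1.84 RPKM at 0 min (4.65, SE 0.19, adjusted p = 7.6e-11). *ctt1*, the catalase gene, had 283, 245 and 244 RPKM at 15 min, against 18, 16.2 and 14.9 RPKM at 0 min (4.43). The groups did not overlap in any of the 12 genes, which the rule for naming them required and which held upwards for 19.9% of all features. Scaling added between 7.74% and 12.7% to the deposited log2 rise of each, so the shift hid only a small part of these rises.

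**Figure D2:**
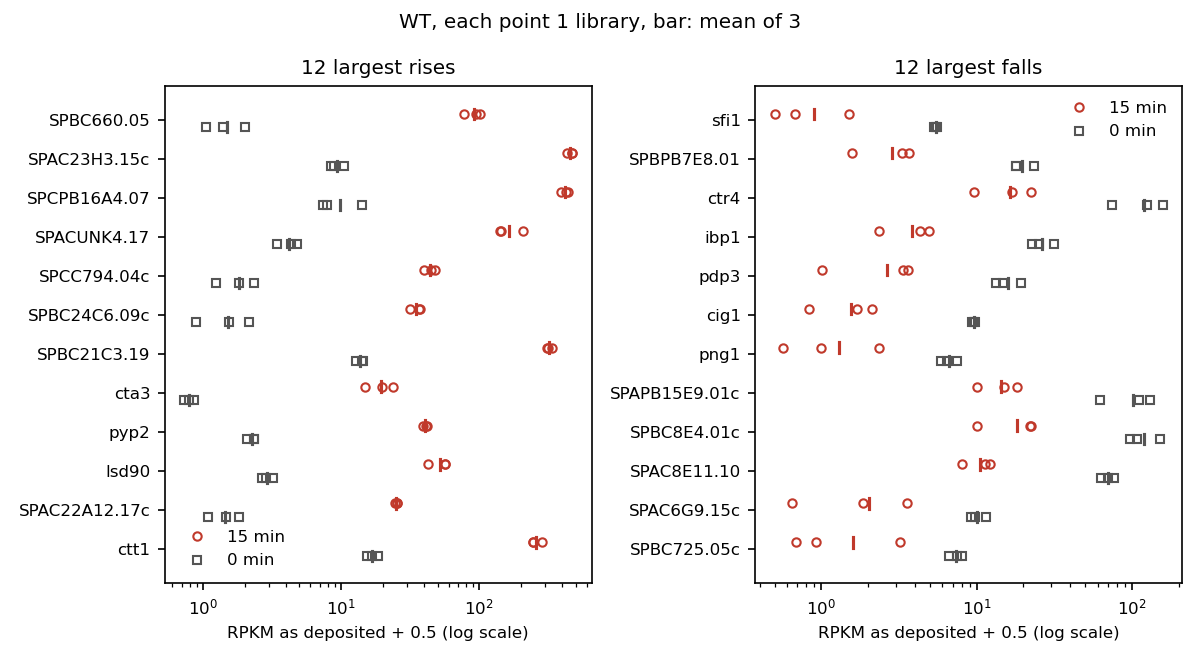
RPKM as deposited + 0.5 on a log axis for the 12 largest rises (left) and the 12 largest falls (right) among protein-coding genes, with 15 min above 0 min for each gene; each point is 1 library and the bar is the mean of 3. The rises are tight and far apart, while several falls, such as *sfi1* and *SPBC725.05c*, spread widely between the 15 min libraries.

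Most of these 12 rises had not ended by 15 min. Tested directly, 9 of the 12 were higher at 30 min than at 15 min, among them *lsd90* (by 2.75), *SPBC24C6.09c* (by 2.69) and *SPAC23H3.15c* (by 2.03). *SPBC660.05* went the other way, by −0.92 between 15 and 30 min (adjusted p = 0.022), and for *cta3* and *pyp2* the test found no difference (−0.00 and 0.49, adjusted p = 1.0 and 0.056). The protein-coding genes with the largest rises whose highest mean of the whole time course was at 15 min were *SPBC660.05*, *cta3*, *srx1*, *rsv2*, *SPAC1002.20* and *SPCC16A11.01*. *srx1*, for sulfiredoxin, which reactivates oxidised peroxiredoxin, had 97.0, 120 and 85.6 RPKM at 15 min, against 5.26, 9.32 and 7.18 RPKM at 0 min (4.22), and was lower by 1.11 at 30 min than at 15 min (adjusted p = 0.0016). *rsv2*, a transcription factor gene, had 24.2, 25.3 and 25.3 RPKM at 15 min, against 1.29, 1.88 and 1.98 RPKM at 0 min (4.0), and was also lower at 30 min, by 0.77 (adjusted p = 0.027). *SPCC16A11.01* (Sfk1, of inositol lipid signalling) rose by 2.29 and *SPAC1002.20* by 2.74, and for both the step to 30 min missed the threshold (adjusted p = 0.099 and 0.095). By 60 min the change of each of these 6 was 1.18 or less.

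**Figure D3:**
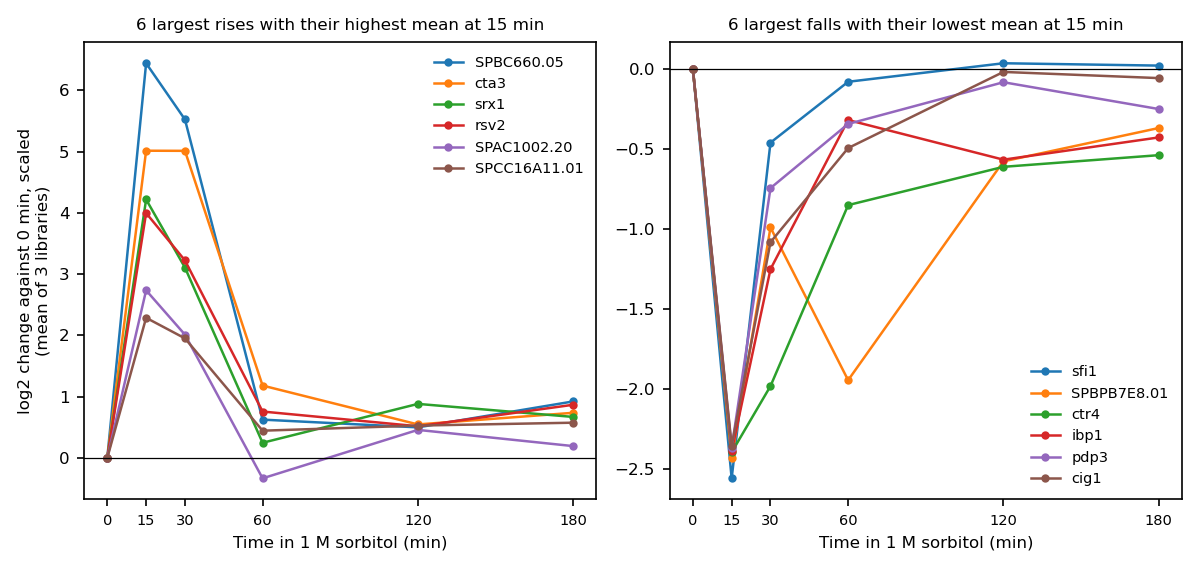
Scaled log2 change against 0 min (y axis, mean of 3 libraries) over the time in 1 M sorbitol (x axis, min), for the 6 largest rises with their highest mean at 15 min (left) and the 6 largest falls with their lowest mean at 15 min (right). *cta3* is level between 15 and 30 min at 5.02 and 5.01, *SPBC660.05* and *srx1* have already turned, and *sfi1* is back at −0.08 by 60 min.

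Of the 633 features called higher at 15 min, 368 (58.1%) were also called higher at 30 min, when 15.5% of all features were, with 229 at 60 min (7.6% of all), 132 at 120 min (3.23%) and 117 at 180 min (2.72%). These comparisons share the 0 min libraries. The highest mean was at 15 min for 298 (47.1%) and at 30 min for 295. From 15 to 30 min, 199 went up further, 155 went down and 279 showed no called step, while 21.4% of all features were called higher and 15.7% lower in that step. The falls are given in the same way. Of the 678 called lower, 201 (29.6%) were also called lower at 30 min (13.2% of all features), 58 at 60 min (7.24%), 18 at 120 min (2.38%) and 13 at 180 min (2.28%). The lowest mean was at 15 min for 575 (84.8%), and 374 were called higher at 30 min than at 15 min (21.4% of all features). These features were chosen for being low at 15 min, which favours both counts. The median change of these falls was −0.86 at 15 min, −0.29 at 30 min and −0.08 at 60 min.

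Large falls were smaller than large rises, and many were in genes with few reads. *sfi1*, whose protein duplicates with the spindle pole body, had 0.179, 1.01 and 0 RPKM at 15 min, against 4.84, 5.07 and 4.97 RPKM at 0 min (−2.56, SE 0.32, adjusted p = 2.3e-05). *SPBPB7E8.01*, an uncharacterised protein gene, had 1.06, 3.17 and 2.80 RPKM at 15 min, against 17.3, 17.3 and 22.8 RPKM at 0 min (−2.43). *cig1*, a B-type cyclin gene, had 0.327, 1.19 and 1.63 RPKM at 15 min, against 9.32, 8.86 and 9.04 RPKM at 0 min (−2.36). The 0 min libraries agree closely in these genes and the spread lies in those of 15 min. *ibp1*, a phosphatase gene of the Cdc25 family that lies just downstream of *cta3* on the same strand, had 3.8, 4.41 and 1.84 RPKM at 15 min, against 30.8, 22.3 and 24.8 RPKM at 0 min (−2.39). *pdp3*, for a PWWP domain protein, fell by 2.37 and *png1*, for a protein of the ING family, by 2.31. Tested against 15 min, *sfi1* was higher at 30 min by 2.10, *png1* by 2.32, *pdp3* by 1.62 and *cig1* by 1.27 (each adjusted p 0.0034 or less).

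A second set of falls was in well-expressed genes, among them genes of transport and the cell surface. *ctr4*, for a subunit of the copper transporter complex, had 16.3, 21.9 and 9.09 RPKM at 15 min, against 157, 124 and 74.3 RPKM at 0 min (−2.40, adjusted p = 1.0e-05). *SPBC8E4.01c*, an inorganic phosphate transporter gene, had 21.7, 21.6 and 9.62 RPKM at 15 min, against 152, 107 and 97.0 RPKM at 0 min (−2.28), and fell by a further 2.21 from 15 to 30 min. *SPAPB15E9.01c* (Pfl2) had 9.48, 17.8 and 14.4 RPKM at 15 min, against 61.4, 111 and 130 RPKM at 0 min (−2.30). *SPAC8E11.10*, for sorbose reductase, had 10.9, 11.7 and 7.52 RPKM at 15 min, against 62.5, 69.3 and 75.7 RPKM at 0 min (−2.26, SE 0.14). For these 4 the shift made up 17.0% to 17.7% of the deposited fall. *SPAC6G9.15c* (Ebp1) and *SPBC725.05c*, a nucleotide pyrophosphatase gene, complete the 12 at −2.26 and −2.23.

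Low values were unevenly spread over the 15 min libraries. Of 2413 protein-coding genes with a 0 min mean of 4 to 20 RPKM, 15, 2 and 32 were under 0.5 RPKM in replicates 1, 2 and 3 of 15 min, against 0, 1 and 0 in those of 0 min and at most 1 in any other WT library. Replicates 1 and 3 shared 4 of these genes, and the 3 libraries together held 44. *SPBC725.05c*, for example, had 0.425, 2.71 and 0.182 RPKM at 15 min, against 6.93, 6.13 and 7.59 RPKM at 0 min. Without replicate 1, 2 or 3 of 15 min, 686, 775 and 693 features were called lower, against 678 with all libraries.

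Length and level moved with the change. In 5 equal bins of protein-coding genes by length, the median change was 0.13 for the shortest (99 to 1212 bases) and −0.18 for the longest (2991 to 15252 bases), with 5.74% and 21.5% called lower. In 5 equal bins by mean WT level it was −0.31 for the lowest (up to 5.46 RPKM) and 0.27 for the highest (from 37.2 RPKM). At 30 min all 10 medians lay between −0.05 and 0.04. Genes called higher had a median length of 1702 bases and a median level of 38.8 RPKM, those called lower 2429 bases and 8.58 RPKM, and all tested 1917 bases and 13 RPKM. RNA quality was not measured in the table, and the part of length in the calls was not tested.

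**Figure D4:**
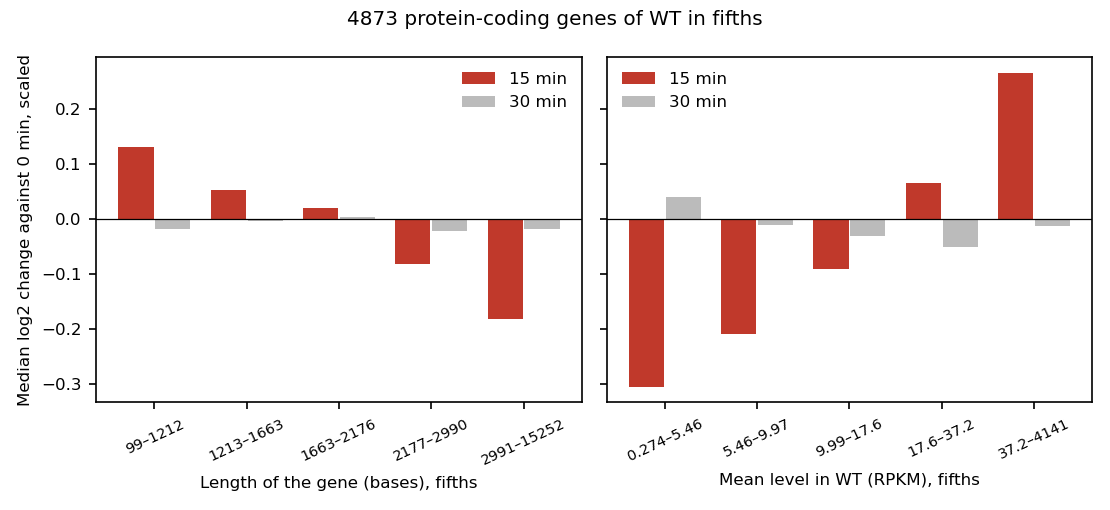
Median scaled log2 change against 0 min (y axis) of the 4873 tested protein-coding genes in 5 equal bins of gene length (left, bases) and of mean WT level (right, RPKM), at 15 min (left bar) and 30 min (right bar). At 15 min the medians run from 0.13 down to −0.18 with length and from −0.31 up to 0.27 with level, and at 30 min they lie near 0.

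The genes of the Sty1 pathway moved in both directions. Of 18 tested members of a list of the cascade and its phosphatases, 6 were called higher and 5 lower. Over all features 10.8% were called higher and 11.5% lower, shares to set beside each list below. *pyp2* and *srk1*, for a MAPK-activated kinase that Sty1 phosphorylates, rose by 4.65 and 2.77. *srk1* had 48.0, 47.4 and 55.1 RPKM at 15 min, against 9.21, 10.4 and 10.3 RPKM at 0 min. The phosphatase genes *ptc1* (0.94) and *ptc3* (0.42), the phosphotransfer gene *mpr1* (0.81) and the kinase gene *cmk2* (0.68) were called higher as well, although *ptc3* was at −0.08 as deposited. The 5 falls were the MAP kinase kinase gene *wis1* (−1.27), the MAP kinase kinase kinase genes *wis4* (−0.80) and *win1* (−0.55), the response regulator gene *mcs4* (−0.81) and the phosphatase gene *ptc4* (−0.62). At 30 min 7 of the 18 members were called higher and 1 lower, and *wis4* (−0.11), *win1* (−0.16) and *ptc4* (0.17) were not called. *wis1* had 2.35, 4.38 and 3.15 RPKM at 15 min, against 8.67, 12.1 and 15.3 RPKM at 0 min. *sty1* itself had 32.1, 28.2 and 30.9 RPKM at 15 min, against 34.8, 33.0 and 36.7 RPKM at 0 min (0.30, adjusted p = 0.27). The second tyrosine phosphatase gene *pyp1* (0.78), *ptc2* (0.25), the sensor kinase genes *mak1* (−0.06), *mak2* (−0.15) and *mak3* (−0.16) and the response regulator gene *prr1* (0.04) did not pass. The list's median was 0.14 (−0.35 as deposited), against 0.00 over all features.

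Of 6 bZIP stress factor genes 3 were called higher by limma and none lower (1 at an unadjusted p under 0.05, 0 with voom). *atf21* had 6.31, 6.95 and 5.50 RPKM at 15 min, against 0.108, 0.0457 and 0.125 RPKM at 0 min, where 4, 1 and 4 reads lay behind the value (3.89, adjusted p = 1.5e-09). *pcr1* rose by 2.59 and *atf1* by 1.21, and *atf21* went up by a further 2.01 to 30 min. The *atf21* and *atf1* windows above both hold the palindrome.

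Osmolyte and sugar genes came next. Of 7 glycerol genes 3 were called higher, and the list's median of 0.06 was −0.44 as deposited. *gpd1*, whose glycerol-3-phosphate dehydrogenase starts glycerol synthesis, had 830, 740 and 738 RPKM at 15 min, against 316, 291 and 302 RPKM at 0 min (1.85, SE 0.14). *gut2*, of glycerol breakdown, rose by 2.45 and *SPAC4D7.02c* by 0.93. Of 4 trehalose genes 3 were called higher. *ntp1*, for trehalase, and *tps1*, for the synthase, rose by 1.73 and 1.72, so that breakdown and synthesis genes rose side by side. *tpp1* rose by 0.40 (−0.10 as deposited). The member that was not called lay at −0.74, with an unadjusted limma p under 0.05. Of 5 hexose transporter genes *ght2* rose by 2.63 while *ght8* and *ght5* fell by 1.03 and 0.77. Among 16 genes of glycolysis only *adh4* was called, and it was lower (−0.85). The median of the 16 was 0.28 scaled and −0.23 as deposited.

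Of 19 antioxidant genes 10 were called higher, and *grx3*, a glutaredoxin gene, was the one called lower (−1.08). The median of the 19 was 0.58 scaled and 0.08 as deposited. Beside *ctt1* and *srx1*, *gpx1*, for glutathione peroxidase, rose by 2.46 and *gst3*, for a glutathione S-transferase, by 1.91. Of 24 heat shock and chaperone genes 8 were called higher by limma and none lower (0 also at an unadjusted p under 0.05 and with voom), and their median of 0.28 was −0.22 as deposited and −0.08 after quantile normalization. *hsp9* had 1772, 1619 and 1265 RPKM at 15 min, against 238, 157 and 194 RPKM at 0 min (3.49), while *ssa1* (0.76), *psi1* (0.73) and the heat shock factor gene *hsf1* (0.69) moved less. Of 13 ion transporter genes *cta3* and *pmp3* (0.87) were called higher and the potassium transporter genes *trk2* (−1.23) and *trk1* (−1.07) lower.

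**Figure D5:**
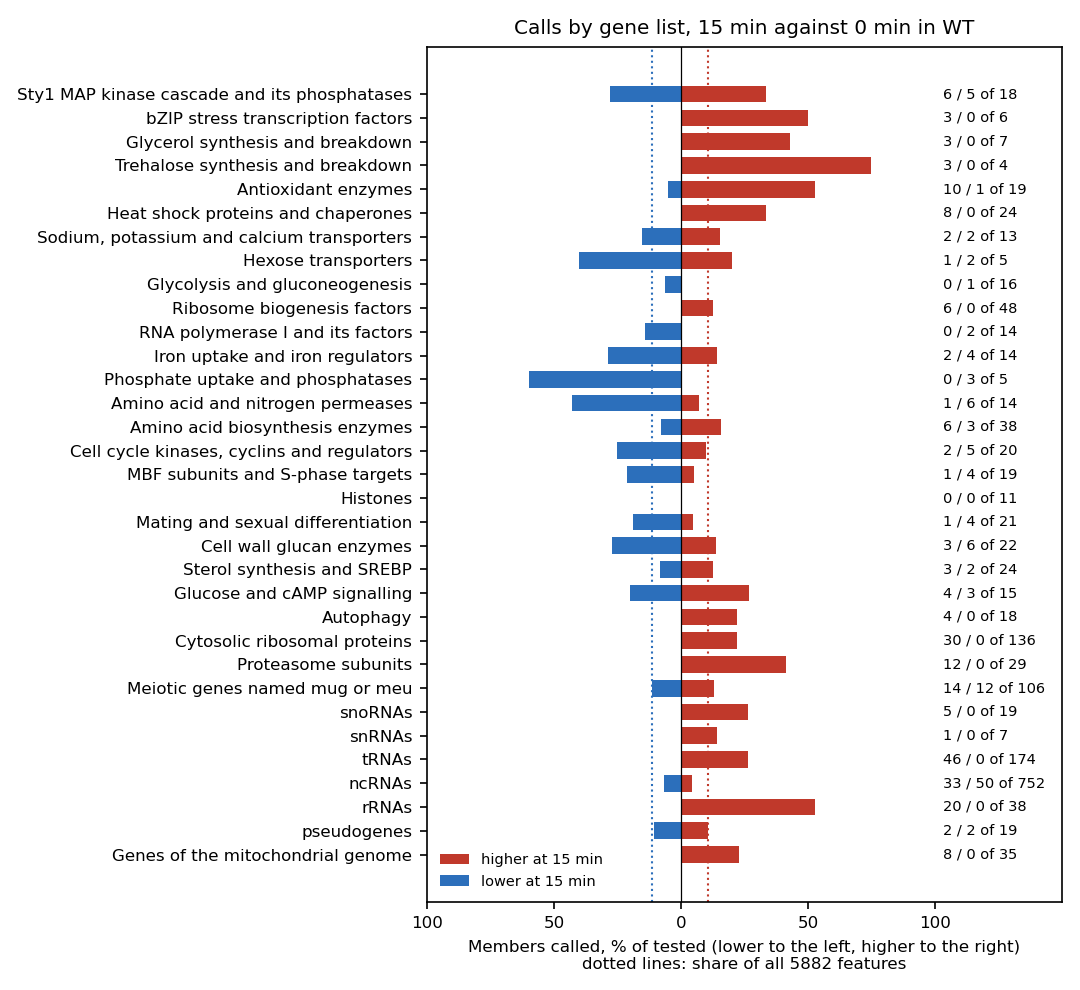
Share of tested members called higher (right, red) and lower (left, blue) at 15 min against 0 min in WT after scaling, for each gene list (rows), with the counts higher / lower of tested at the right edge and dotted lines at the shares over all 5882 features. Stress lists lean to the right (10 of 19 antioxidant genes higher) and uptake lists to the left (6 of 14 permease genes lower).

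Lists of uptake and cell surface genes held falls at shares above the 11.5% of all features called lower. In the 5 bins of protein-coding genes by level, 2.26% to 20.6% were called lower. Of 14 permease genes 6 were called lower and 1 higher (*aap1*, 0.31, but −0.18 as deposited), led by the ammonium transporter gene *amt1* (−1.82), *bsu1* (−1.31), the glutathione transporter gene *pgt1* (−1.30) and the uracil permease gene *fur4* (−1.15). Of 14 iron genes 4 were called lower and 2 higher, with *frp1*, for ferric reductase, at −1.88, the siderophore transporter gene *str1* at −1.83 and *fip1*, for iron permease, at −1.48. The iron-sulfur assembly gene *isa2* rose by 0.82, and the median of the 14 iron genes was 0.04 scaled and −0.40 as deposited. Of 5 phosphate genes 3 were called lower, among them the acid phosphatase gene *pho4* (−1.11). Of 22 cell wall genes 6 were called lower and 3 higher. *eng1*, the glucanase that opens the septum between daughter cells, had 11.8, 15.3 and 12.2 RPKM at 15 min, against 69.3, 65.9 and 96.1 RPKM at 0 min (−2.01). *agn1*, which acts beside it, fell by 1.25, and the glucanosyltransferase gene *gas2* rose by 1.05.

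Of 20 cell cycle genes 5 were called lower and 2 higher, against 11.5% and 10.8% of all features. Beside *cig1*, the M-phase genes *mbx1* (−1.65) and *slp1* (−1.49) and the cyclin gene *cig2* (−0.70) fell. Of 19 MBF subunits and S-phase targets 4 were called lower, among them the cohesin gene *rad21* (−1.11) and *tos4* (−0.80), and *res2*, an MBF subunit gene, rose by 0.76. None of 11 histone genes was called by limma or with voom, and 1 was higher and 1 lower at an unadjusted p under 0.05. Their median was 0.00, −0.45 as deposited and −0.32 after quantile normalization. *hhf1*, for histone H4, had 188, 217 and 229 RPKM at 15 min, against 475, 354 and 383 RPKM at 0 min (−0.42, adjusted p = 0.10). Of 21 mating genes 4 were called lower and 1 higher. *ste11*, the master transcription factor gene of mating, fell by 1.24, and *map1*, for a MADS-box factor, rose by 1.51 at very low levels.

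The glucose and cyclic AMP pathway moved in both directions (4 higher, 3 lower of 15, against 10.8% and 11.5% of all features). *cgs1*, for the regulatory subunit of protein kinase A, had 23.9, 21.7 and 27.4 RPKM at 15 min, against 9.17, 9.10 and 8.50 RPKM at 0 min (1.88). *pka1*, for its catalytic subunit, rose by 1.28 and the G protein gamma subunit gene *git11* by 1.62, while the glucose receptor gene *git3* fell by 1.70. Autophagy genes were called higher in 4 of 18, with *atg4* at 1.39 and *atg3* at 1.12, and their median of 0.22 was −0.22 as deposited. Of 106 meiotic genes named mug or meu, 14 were called higher and 12 lower, near the shares over all features. Among them, *mug66* (Atg101 in RefSeq) was at 1.93 and *mug110* at −1.75. Of 38 amino acid synthesis genes 6 were called higher and 3 lower, and of 24 sterol genes 3 and 2. The median of the 38 was 0.18 scaled and −0.33 as deposited.

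Ribosome biogenesis genes were lower at 30 min than at 15 min. Of 48 ribosome biogenesis factors 6 were called higher by limma and none lower at 15 min (0 also at an unadjusted p under 0.05 and with voom), with a median of 0.14 that was −0.36 as deposited, whereas at 30 min none was called higher and 42 lower (median −0.95). Tested directly, 47 of the 48 were lower at 30 min than at 15 min, when 15.7% of all features were. *nop12* had 58.4, 38.3 and 47.3 RPKM at 15 min, against 55.9, 44.8 and 45.1 RPKM at 0 min (0.47), and then dropped by 1.99. The sign at 15 min rests on the scaling, since the list's median was also below 0, at −0.07, after quantile normalization and at −0.09 set against protein-coding reads. Of 136 ribosomal protein genes 30 were called higher, such as *rps1202* (0.69), and 85 were lower at 30 than at 15 min. In the highest of the 5 bins by level, 27.7% of protein-coding genes were called higher at 15 min. The median of the 136 ribosomal protein genes at 15 min was 0.31 scaled, but −0.20 as deposited and −0.18 after quantile normalization. Of 14 RNA polymerase I genes *rrn5* (−1.03) and *rrn11* (−0.82) were called lower, and for *rrn11* the groups overlapped. Proteasome genes were called higher in 12 of 29, with *pup1* at 0.72 and *rpn11* at 0.61, and their median of 0.36 was −0.13 as deposited.

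Short and stable RNAs, and the genes of the mitochondrial genome as a list, lay above the median feature after scaling. Of 174 tRNA genes 46 were called higher by limma (26.4%) and none lower (1 at an unadjusted p under 0.05), with a median of 0.80 scaled and 0.30 as deposited. Of 38 rRNA features 20, of 19 small nucleolar RNAs 5, of 7 small nuclear RNAs 1 and of 35 genes of the mitochondrial genome 8 were called higher, and none was called lower by limma or at an unadjusted p under 0.05. The mitochondrial median was 0.51 scaled, 0.01 as deposited and −0.01 after quantile normalization. The snoRNA and snRNA medians, 0.63 and 0.66 scaled, were −0.06 and −0.15 after quantile normalization. Reads were kept where they aligned to 1 locus, so repeated tRNA and rRNA genes show their unique sequence alone, and rRNA is what the depletion left behind.

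Of 752 ncRNAs 33 were called higher (4.39%) and 50 lower (6.65%). *SPNCRNA.1165* had 10.1, 7.77 and 9.05 RPKM at 15 min, against 0.379, 0.0804 and 0.220 RPKM at 0 min (4.13, adjusted p = 2.0e-09). *SPNCRNA.828* rose by 3.31 and *SPNCRNA.974* by 2.69. *sme2*, the meiotic RNA known to bind the regulator Mei2, had 30.7, 20.4 and 12.4 RPKM at 15 min, against 3.50, 1.98 and 2.29 RPKM at 0 min (3.23), and was lower by 1.67 at 30 min than at 15 min. The largest falls, *SPNCRNA.1369* (−2.0), *SPNCRNA.779* (−1.93), *SPNCRNA.1374* (−1.51) and *SPNCRNA.666* (−1.48), were in RNAs of at most 5.31 RPKM at 0 min.

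Of the genes with the strongest rises, 3 lay opposite an ncRNA that was called lower. *SPNCRNA.1374* overlaps *cta3* on the other strand by 3639 bases and had 0.915, 1.32 and 0.60 RPKM at 15 min, against 5.31, 4.41 and 4.31 RPKM at 0 min. At 0 min the antisense RNA was thus above *cta3* in every library, and at 15 min it was below *cta3* in every library. *SPNCRNA.857*, which overlaps *SPACUNK4.17* by 1531 bases, fell by 1.04, and *SPNCRNA.1505*, which covers all 2612 bases of *SPBC24C6.09c*, fell by 1.11. *SPNCRNA.832*, opposite *SPAC23H3.15c*, was not called (−0.14, adjusted p = 0.88). *rsv2* differed in part. *SPBC1105.13c*, within the deposited span of *rsv2* on the other strand, rose by 3.71, and the ncRNA *SPNCRNA.1611* there by 2.51. The gene *htd2*, which overlaps *rsv2* by 27 bases on that strand, was called lower (−1.21). By the RefSeq start of *rsv2* (3532928), *SPBC1105.13c*, which ends at 3532680, lies before the gene. Of the 28 genes named for their rise or fall, 14 had a feature on the other strand and 7 an ncRNA there. Such overlaps were not counted over all protein-coding genes, so the counts here do not show that they are more common among these genes.

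The sum of these changes was small in reads for the falls and larger for the rises. Protein-coding genes called higher took 25.9%, 24.3% and 25.4% of protein-coding reads at 15 min, against 19.7%, 18.1% and 18.4% at 0 min. Those with a rise of over 2-fold took 4.89%, 4.46% and 5.09% at 15 min, against 1.30%, 1.37% and 1.48% at 0 min. Genes called lower took 2.85%, 3.19% and 2.84% at 15 min, against 6.04%, 6.13% and 6.36% at 0 min. These shares were chosen by the calls and are a description.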

How the data were processed

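RNA levels came from 3 WT libraries at 15 min and 3 at 0 min of 1 M sorbitol, among 36 libraries of 2 strains. The authors depleted rRNA, sequenced strand-specific single-end reads of 50 bases on a SOLiD 5500xl, aligned them with SHRiMP2 to PomBase release 11, kept reads of 1 locus and deposited RPKM with no scaling between libraries. Whole reads could be recovered from all 253404 deposited RPKM values (tolerance 0.01). The 15 min libraries held 20126545, 11020274 and 10069351 uniquely mapped reads, and the 0 min libraries 16727226, 9856099 and 14393560. Replicates differed by more than sampling noise (chi-squared per degree of freedom 19.1 or more).

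A feature was tested if more than 6 libraries out of 36 reached 1 RPKM. Scaling factors were unweighted trimmed means (trim at each end: 30% by log ratio, 5% by level), and the log2 of scaled RPKM + 0.5 was used. limma 3.58.1 in R 4.3.3 fitted the 18 WT libraries by time, allowing the variance to follow the mean, with Benjamini-Hochberg adjustment over features and the 5 contrasts against 0 min. The fit was also run on simulated reads with as many rises as falls, the same spread for all features and no median drop. Those settings differ from these data, so that run does not show how well the calls hold here. The threshold was 0.05. The members and lists were chosen with earlier results of these data known. Named are the 12 largest rises and falls of protein-coding genes and the 4 of ncRNAs whose groups did not overlap and whose higher group had at least 50 reads on average, the 6 of each direction with their extreme at 15 min, all Sty1 pathway members, and up to 4 called members of each list with the largest change (the 2 of highest level where none was called). Others named were chosen after their values were seen: opposite-strand features, *grx3* and *aap1*.

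Coordinates of 168 tRNA and 47 rRNA genes were the same in the table and in RefSeq ASM294v3, while ends of protein-coding genes differ, and 5100 of 5122 nuclear protein-coding genes matched by ID. Motifs TGACGT and TGACGTCA were searched for on both strands. CAGTCACA (HomolD) was found in 64.0% of 136 ribosomal protein genes and 2.69% of all, and ACGCGT (MCB) in 3.20% of genes called lower and 3.26% of all. Alternatives were other scalings, pseudocounts (0.1 and 1), filters, replicate number as a factor, the 6 libraries alone, no trend, voom on the recovered reads and leaving out each library. Added after the data were seen were scaling set on the WT libraries alone and scaling to reads other than rRNA. Python 3.11.15, numpy 2.4.6, pandas 2.3.3 and matplotlib 3.10.9 were used. The authors' own test results were not used.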

Additional observations from a re-analysis of the deposited data

How the results depend on the processing

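The scaling moved the counts most. Calls higher were 146 with no scaling, 399 after quantile normalization, 253 set against protein-coding reads and 209 against reads other than rRNA, and calls lower 1945, 1249 and 1625 for no scaling, protein-coding reads and reads other than rRNA. The share of calls that were higher was 48.3% scaled and 6.98% as deposited. Fitted on the 6 libraries alone, 399 were higher and 289 lower. Scaling set on the WT libraries alone gave 770 and 626. Leaving out 1 library gave 386 to 602 higher (394 without replicate 2 and 386 without replicate 3 of 0 min) and 468 to 775 lower. Over all functional lists together, 125 members of 664 were called higher and 65 lower. The higher count was 29, 59, 51, 35 and 68 with no scaling, quantile normalization, protein-coding reads, reads other than rRNA and 6 libraries alone (76 to 110 without 1 library, with 81 and 76 without replicates 2 and 3 of 0 min), and the lower count 171, 116, 145 and 36 with no scaling, protein-coding reads, reads other than rRNA and 6 libraries (44 to 69). Features called higher with their highest mean at 15 min were 22, 117, 53 and 40 with no scaling, quantile normalization, protein-coding reads and reads other than rRNA (138 to 315 without 1 library, the lowest 146 and 138 without replicates 2 and 3 of 0 min), and those called lower with their lowest mean then 1517, 1045 and 1308 with no scaling, protein-coding reads and reads other than rRNA (399 to 692). Of the 12 rises, 8 to 10 were higher at 30 than at 15 min without 1 library, and of the 12 falls 8 to 9. The deposited median was −0.31 without rRNA reads and −0.21 against protein-coding reads, and −0.54 to −0.39 without 1 library. Deviations of same-numbered replicates had correlations of 0.16, −0.02 and 0.15, and those of differently numbered replicates ran from −0.20 to 0.09. With 3 replicates a group these values cannot decide whether the numbers pair the samples, and the main fit did not pair them. A replicate block gave 863 higher and 783 lower and moved the features called higher and highest at 15 min to 449. With no scaling, *ptc3* (−0.080), *tpp1* (−0.10), *nop12* (−0.030), *nro1* (−0.088) and *atg2* (−0.072) changed sign. Of 127 called named genes, 79 were called under all 21 alternatives. The cause of these moves was not tested.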
